A study of Mus musculus with 20 samples.

Results

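The 44 genes described here are response genes of type I interferon, taken as a fixed list of symbols and matched to the Ensembl identifiers of the count files, which hold 54838 genes. They were measured in microglia, which are the macrophages of brain tissue, sorted from mouse frontal cortex at postnatal day 40. Each of the 20 libraries came from 1 mouse, for which 1000 cells with high CD11b and low CD45 were collected. The mice carried 5 genotype labels, with 4 mice labelled WT, 5 labelled C4-/-, 5 labelled hC4A/-, 4 labelled hC4B/- and 2 labelled hC4A/A. The series describes the animals as humanized mice that contain human C4A or C4B sequences, the genes of complement component 4. The labels do not say how the human alleles were inserted, which promoter drives them, or which mouse C4 alleles the hC4A/-, hC4B/- and hC4A/A mice keep. They give no interferon or other treatment, and no sex.

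Type I interferons are secreted cytokines that signal through a receptor made of IFNAR1 and IFNAR2. The kinases bound to that receptor activate transcription factors such as STAT2, which joins IRF9 and binds interferon-stimulated response elements in the promoters of antiviral genes. Microglia are known to keep some of these genes at a basal level and to raise many of them during infection, ageing and disease.

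No member passed the threshold for a difference between genotypes, an adjusted p under 0.05 in edgeR's quasi-likelihood test over all genes, in any of 8 comparisons. The list divided instead by level. Of the 44, 15 were detected in every library, led in level by Trim30a and Eif2ak2. By contrast 22, including Isg15, Irf7, the IFIT family and the OAS family, had a median of 3 counts or fewer. For 11 members a single library held over 30% of the level summed over the 20 libraries, in CPM (counts scaled to library size by the TMM method).

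The promoters of 4 members that hold a core of the interferon-stimulated response element are shown, in a pair with a median of 24 counts or more per library and a pair with a median under 3. RefSeq promoter sequences (GRCm38.p6) were available for 33 of the 44 members and were searched on both strands, from 250 bases before to 50 bases after the start, for GAAA, any 2 bases and GAAA again, which is that core. Matches may overlap. The sequences below are the 250 bases before each start, 5′ to 3′ in the direction of the gene, with the matches in capitals. They lie at chr7:104465194-104465443 (minus strand) for Trim30a, chr10:128270248-128270497 (plus strand) for Stat2, chr19:34583279-34583528 (plus strand) for Ifit3 and chr5:120907526-120907775 (minus strand) for Oas1a. A check of direction against GENCODE transcripts found a match for Trim30a, Ifit3 and Oas1a. It found none for Stat2, whose RefSeq start lies before the GENCODE gene start at 128270559, so its direction was not checked.
Trim30a: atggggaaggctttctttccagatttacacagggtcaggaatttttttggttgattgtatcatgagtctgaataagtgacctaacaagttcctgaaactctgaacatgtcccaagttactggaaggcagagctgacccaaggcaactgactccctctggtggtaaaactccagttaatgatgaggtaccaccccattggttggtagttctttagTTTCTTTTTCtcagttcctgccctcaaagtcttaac
Stat2: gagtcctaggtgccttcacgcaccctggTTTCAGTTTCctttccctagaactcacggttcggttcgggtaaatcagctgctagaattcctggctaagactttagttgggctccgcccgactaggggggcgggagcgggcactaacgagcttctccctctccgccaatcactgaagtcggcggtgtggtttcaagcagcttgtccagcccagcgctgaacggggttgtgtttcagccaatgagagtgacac
Ifit3: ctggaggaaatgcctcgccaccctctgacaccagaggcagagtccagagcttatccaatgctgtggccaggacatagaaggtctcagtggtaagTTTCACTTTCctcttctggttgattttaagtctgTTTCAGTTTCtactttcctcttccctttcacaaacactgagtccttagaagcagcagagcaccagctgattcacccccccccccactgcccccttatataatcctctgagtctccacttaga
Oas1a: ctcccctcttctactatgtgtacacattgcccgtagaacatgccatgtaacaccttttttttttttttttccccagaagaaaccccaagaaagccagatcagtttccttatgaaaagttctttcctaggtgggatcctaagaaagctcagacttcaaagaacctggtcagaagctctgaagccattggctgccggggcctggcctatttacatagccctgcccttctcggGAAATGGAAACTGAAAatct
Trim30a, the most abundant member, had 1 match that begins 36 bases before the start, and Stat2 had 1 at 222 bases. Ifit3 had 2, at 156 and 122 bases, and Oas1a had 2 overlapping ones, at 20 and 14 bases. Of these 33 members, 15 (45.5%) held a match, against 3.99% of 27025 genes. It was held by 6 of the 13 with a median of 10 counts or more and by 9 of the 20 below. A match describes these letters and is not evidence of binding.

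Libraries held 855099 to 2735181 gene counts, with a median of 1710215.5, and 3 satellite-like predicted genes took 12.3% to 75.1% of them. Of the list, 33 members passed the filter on low counts and were tested among 12680 genes. In 4 libraries, called broad here, over 27000 genes were detected, against 11348 to 23912 in the other 16: hC4A/A replicate 2, both hC4B/- replicate 2 and hC4B/- replicate 3, and C4-/- replicate 3. Mouse C4b went against the labels, with 0 to 2 counts in each WT library and 4 to 428 in every other library, those labelled C4-/- included. The WT libraries also carry deposited names of another numbering than the other 16, so genotype and that difference cannot be told apart. All 14 microglia markers were detected in every genotype, with a summed level of 4935 to 13221 CPM per library. Neutrophil markers summed to 102 to 1424 CPM in WT libraries and 0 to 176 CPM in the others, and their part in the comparisons with WT was not tested. In RNA from sorted pools, fewer cells of a type and less RNA per cell cannot be told apart.

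**Figure D1:**
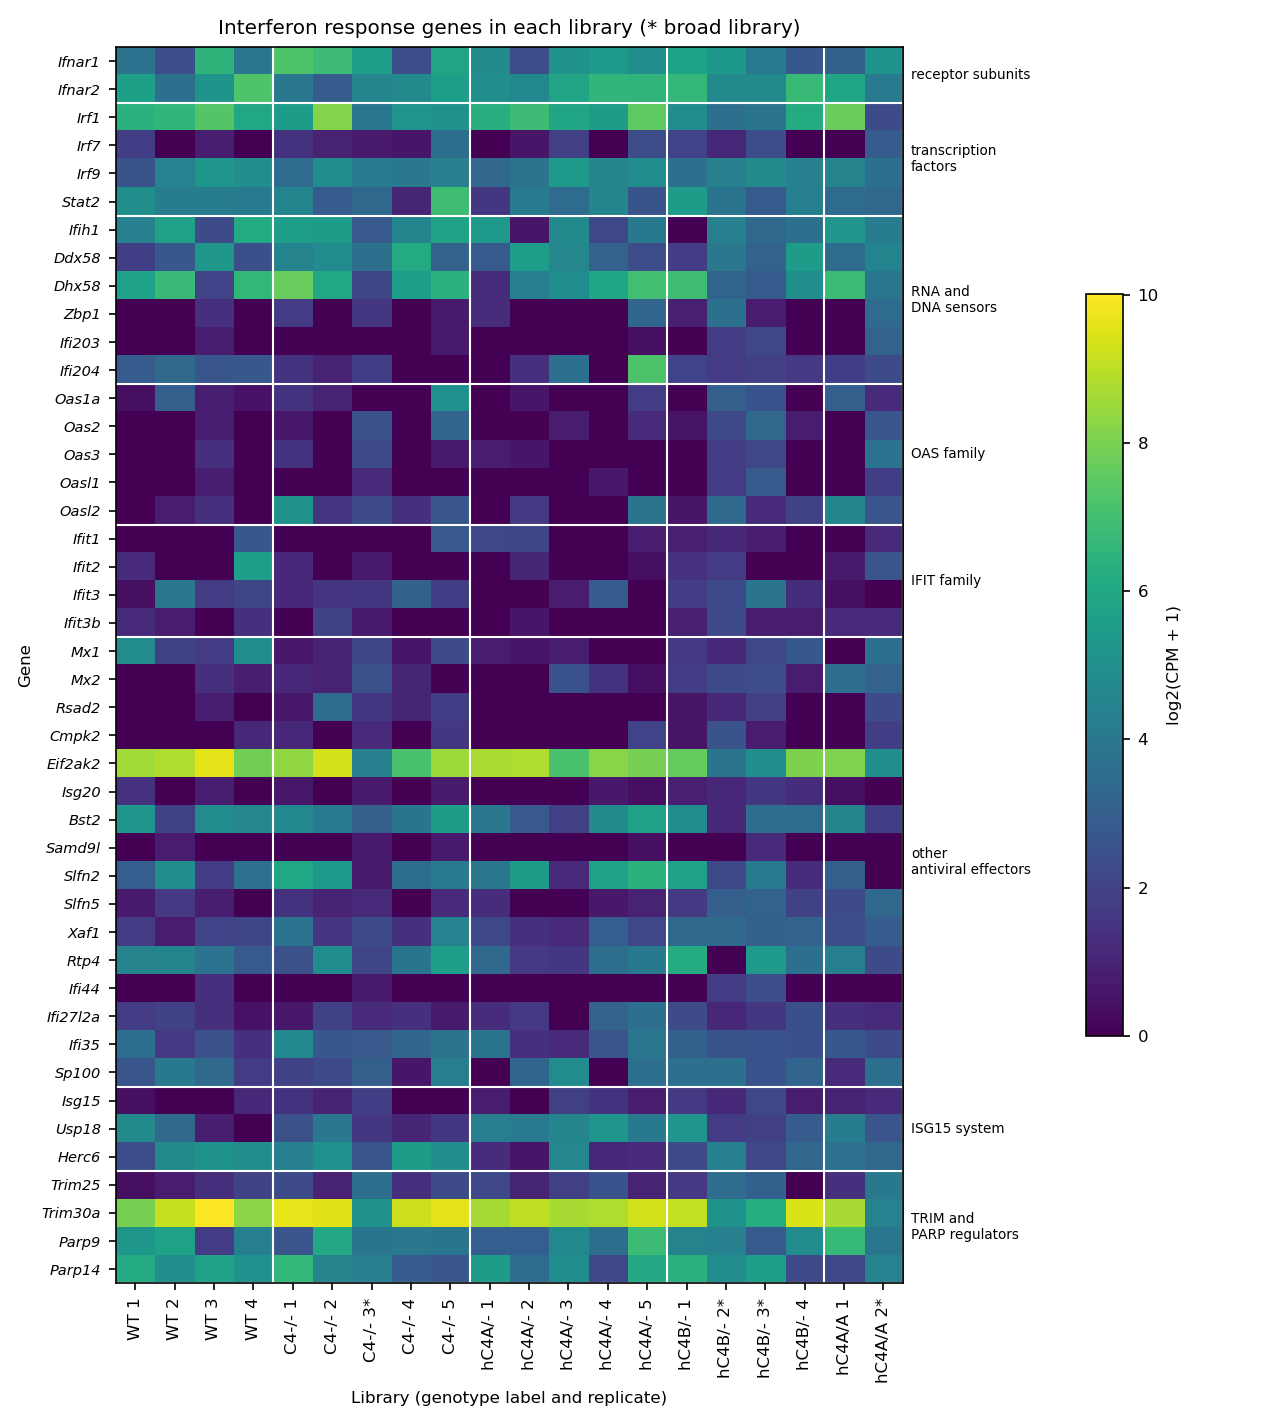
Level of the 44 members (rows, grouped by role) in each of the 20 libraries (columns, grouped by genotype label), as log2(CPM + 1). Trim30a and Eif2ak2 form the bright rows and drop in the 4 broad libraries marked with an asterisk, while most OAS and IFIT rows stay near 0.

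Per kilobase of exon, Trim30a, a TRIM family protein that restrains NF-kB signalling, had the highest median level of the list, at 119.8 CPM per kb. Eif2ak2, which encodes the RNA-activated kinase PKR, followed at 51.2 CPM per kb. Then came the membrane tether Bst2 (17.3 CPM per kb), the transcription factor Irf1 (15.4) and the RNA sensor Dhx58, also called LGP2 (14.97). Isg15, the ubiquitin-like protein that is among the most used interferon markers, reached 1.26 CPM per kb. Of all 44, 15 were detected in every library and 18 had a median of 10 counts or more.

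The broad libraries differed from the others in opposite ways for abundant and scarce members. Of the 18 members with a median of 10 counts or more, 15 had a lower median CPM in the 4 broad libraries than in the other 16. Of the 26 below that level, 24 had a higher one. The shares over all abundant and all scarce genes were not computed. The classes were also cut on medians over the same 20 libraries, so these counts are not read as particular to the members. Trim30a ran from 20.7 to 71.5 CPM in the broad libraries and from 248 to 1028 CPM in the others, with no overlap. Eif2ak2 ran from 13.3 to 29.8 CPM and from 139 to 769 CPM, again without overlap. In 13 of the 44 members the highest library was a broad one, against 65.8% of all genes with any count. That share includes genes that failed the filter on low counts. A share over genes of like level was not computed, so the members are not read as differing from such genes.

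The receptor subunits were detected in all 20 libraries. Ifnar1 measured 13.02, 4.27, 91.2 and 14.2 CPM in WT, 151, 115, 47.2, 4.297 and 56.6 CPM in C4-/-, 26.2, 4.299, 34.3, 42.1 and 28.6 CPM in hC4A/-, 55.5, 39.8, 17.01 and 5.85 CPM in hC4B/-, and 7.42 and 34.98 CPM in hC4A/A. WT replicate 3 and C4-/- replicates 1 and 2 were high, and all genotypes overlapped. Ifnar2 measured 49.4, 12.1, 35.3 and 151 CPM in WT, 14.95, 6.53, 22.3, 25.2 and 45.9 CPM in C4-/-, 30.4, 24.7, 56.3, 95.4 and 91.9 CPM in hC4A/-, 99.5, 25.3, 26.5 and 109.6 CPM in hC4B/-, and 59.7 and 16.8 CPM in hC4A/A. All genotypes overlapped, and the comparison of smallest p was hC4B/- against C4-/-, with a log2 fold change of 1.50 ± 0.75 (SE) and an edgeR adjusted p of 0.99. An overlapping gene model on the same strand covers 9.46% of the Ifnar2 exon bases, and reads there cannot be assigned to either gene.

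Among the transcription factors, Irf1, Irf9 and Stat2 were detected in every library, whereas Irf7, the factor that amplifies interferon production, had a median of 1 count. Irf1 measured 82.4, 95.4, 160.2 and 63.4 CPM in WT, 45.4, 279.7, 14.4, 35.99 and 33.9 CPM in C4-/-, 78.7, 115, 59.04, 44.5 and 184 CPM in hC4A/-, 30.3, 12.1, 13.6 and 69.4 CPM in hC4B/-, and 207 and 3.89 CPM in hC4A/A. C4-/- replicate 2 stood high, and the broad libraries were the lowest 4. Over all libraries C4-/- and WT overlapped, since C4-/- replicate 2 lay above every WT library. Only with it and the broad libraries set aside did the other C4-/- libraries (33.9 to 45.4 CPM) lie below all WT libraries (63.4 to 160.2 CPM). That choice was made on the values, so it is not read as a separation. Of the libraries then left, hC4A/A replicate 1 (207 CPM) was highest, and hC4A/- and hC4B/- overlapped with both WT and C4-/-. This pattern was named after the values were seen. Stat2, whose protein binds IRF9 in the interferon-activated complex, measured 30.4, 17.8, 17.6 and 16.3 CPM in WT, 21.9, 6.53, 9.18, 1.07 and 119.8 CPM in C4-/-, 2.07, 16.7, 10.3, 22.8 and 5.104 CPM in hC4A/-, 45.7, 13.3, 6.13 and 19.001 CPM in hC4B/-, and 10.3 and 9.07 CPM in hC4A/A. C4-/- replicate 5 alone held 29.9% of the summed Stat2 CPM.

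The nucleic acid sensors spanned the whole range of levels. Dhx58 measured 51.7, 110.3, 3.07 and 97.9 CPM in WT, 206, 62.5, 3.28, 46.2 and 83.2 CPM in C4-/-, 1.38, 18.3, 28.1, 60.3 and 124 CPM in hC4A/-, 118, 8.44, 6.13 and 30.7 CPM in hC4B/-, and 113 and 14.3 CPM in hC4A/A. Low and high libraries occurred within each genotype. Ifih1, the long double-stranded RNA sensor MDA5, measured 46.01, 45.7, 5.899, 22.02 and 53.2 CPM in C4-/- and 0, 19.3, 9.53 and 11.7 CPM in hC4B/-, with overlap through C4-/- replicate 3. Zbp1, a sensor of Z-form nucleic acid, had a median of 0.5 counts, and Ifi203 was not tested.

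Ifi204, a DNA-sensing member of the interferon-inducible p200 family, had most of its summed level in 1 library. It measured 6.34, 9.97, 5.37 and 5.69 CPM in WT, 1.73, 0.932, 2.62, 0 and 0 CPM in C4-/-, 0, 1.61, 11.7, 0 and 146 CPM in hC4A/-, 2.99, 2.41, 2.72 and 2.19 CPM in hC4B/-, and 2.58 and 3.89 CPM in hC4A/A. hC4A/- replicate 5 held 70.0% of the sum, and the other 4 hC4A/- libraries overlapped with every genotype. The 4 WT libraries all lay above every library labelled C4-/-, hC4B/- or hC4A/A, a separation named after the values were seen. In C4-/- against WT the log2 fold change was -2.62 ± 1.33 (SE), with an unadjusted p of 0.0581 and an edgeR adjusted p of 0.597. hC4A/- replicate 5 also held the highest level of Bst2, Slfn2, Ifi27l2a and Parp9, so of 5 members in all. C4-/- replicates 1 and 5 each held the highest level of 5 members too, and hC4B/- replicate 3 of 6. hC4A/- replicate 5 had 2735181 gene counts, the most of all libraries. Its summed monocyte markers were 50.02 CPM, within the 3.67 to 74.0 CPM of WT libraries, and its border macrophage markers summed to 27.2 CPM, against 4.30 to 99.5 CPM over the 16 libraries that were not broad. Its neuron markers (116 CPM, next 89.5 CPM) and its microglia markers (13221 CPM) were the highest of all 20 libraries. Among the 16 that were not broad, its lymphocyte and NK cell markers were second highest (28.6 CPM) and its oligodendrocyte markers lowest (103 CPM). The part of these in the Ifi204 level was not tested. Ifi203 and Ifi204 belong to a family of near copies, so their counts are uncertain.

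**Figure D2:**
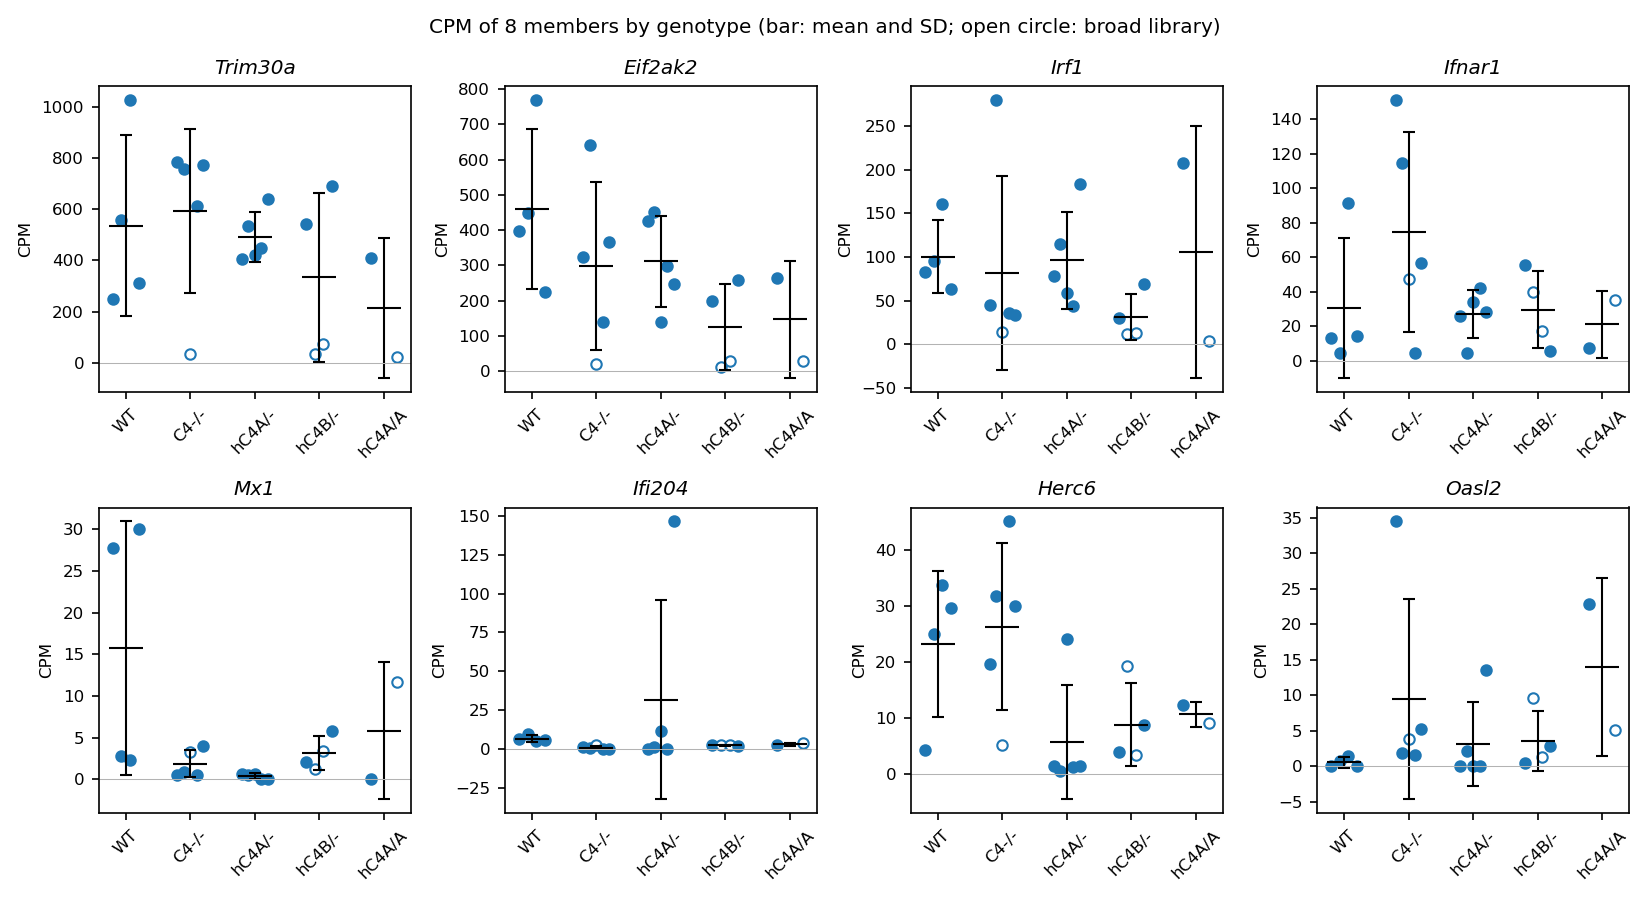
CPM of 8 members in each library (points) by genotype label, with the mean and SD as bars and broad libraries as open circles. The abundant Trim30a, Eif2ak2 and Irf1 are lowest in broad libraries, Mx1 is high in 2 WT libraries, and Ifi204 is high only in hC4A/- replicate 5.

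The effector families were mostly at the edge of detection. Of the OAS family, synthetases that activate RNase L, Oas1a, Oas2 and Oasl2 were tested and Oas3 and Oasl1 were not. Of the IFIT family, which binds foreign RNA ends, Ifit1 and Ifit3 were tested and Ifit2 and Ifit3b were not. The other untested members were Ifi203, Rsad2, Cmpk2, Isg20, Samd9l, Ifi44 and Isg15, and the 11 held 6 to 140 counts each over all libraries. Ifit2 held 76.8% of its summed CPM in WT replicate 4, at 47.9 CPM, with 5.18 CPM in the next library. Counts of Ifit3 and Ifit3b, of the Oas1 genes, of the Schlafen genes and of the Trim30 family are uncertain where near copies share reads.

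**Figure D3:**
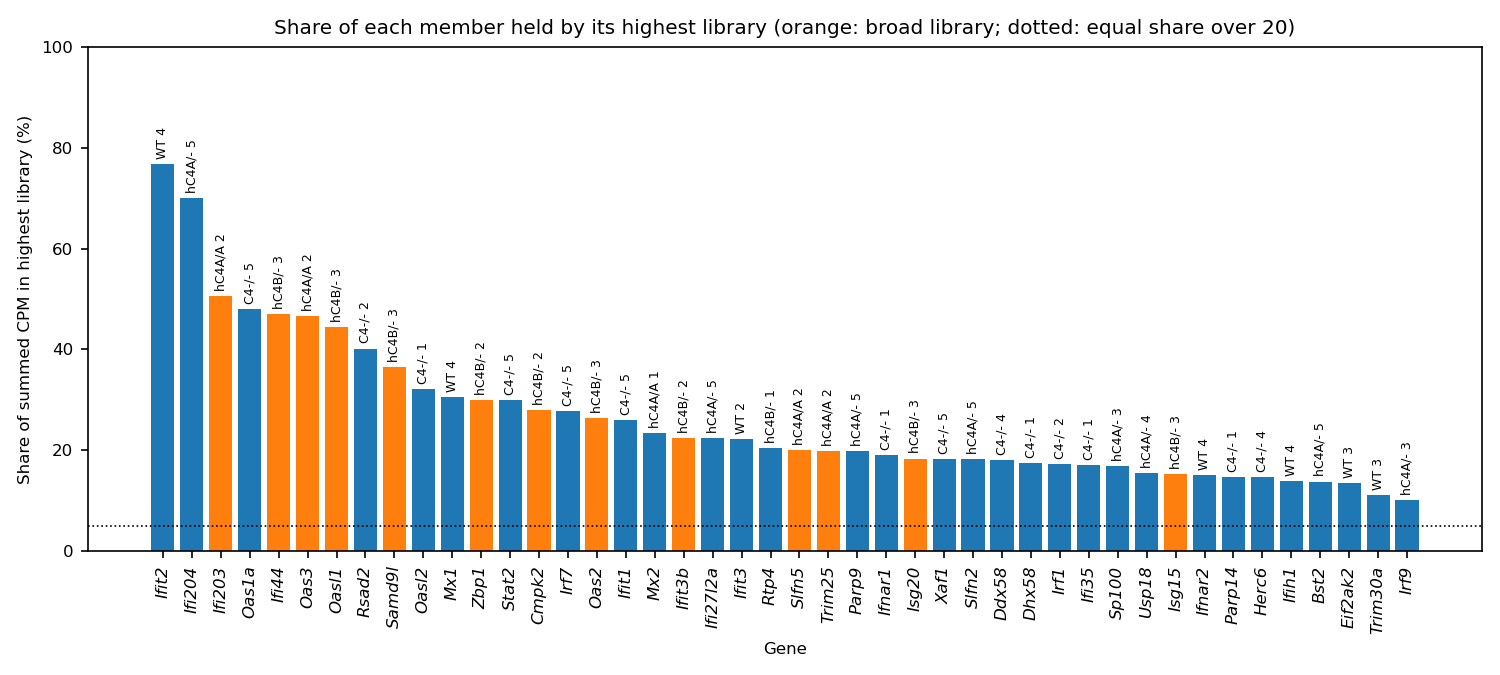
Share of each member's summed CPM that its highest library held (bars, percent), with that library named above the bar, broad libraries in orange and an equal share over 20 libraries dotted. Ifit2 (76.8%) and Ifi204 (70.0%) lead, and Irf9 is the most evenly spread at 10.02%.

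In libraries labelled C4-/- against WT, Oasl2 was the member of smallest p. It measured 34.5, 1.86, 3.93, 1.61 and 5.32 CPM in C4-/- and 0, 0.712, 1.53 and 0 CPM in WT. The groups did not overlap in CPM, although C4-/- replicate 1 held most of the difference. The nearest libraries, C4-/- replicate 2 and WT replicate 3, had equal counts, so the gap between them comes from scaling to library size. The summed counts of 79 against 3 gave a ratio of 27.9 (95% exact interval 9.21 to 138, counting error only), and the log2 fold change was 4.12 ± 1.63 (SE), or 2.54 without C4-/- replicate 1 (unadjusted p = 0.017, edgeR adjusted p = 0.529). Mx1, a dynamin-like antiviral GTPase, measured 0.575, 0.932, 3.28, 0.537 and 3.99 CPM in C4-/- and 27.7, 2.85, 2.2998 and 30.1 CPM in WT. The groups overlapped, with WT replicates 1 and 4 far above all other libraries, and the log2 fold change was -3.04 ± 1.24 (SE) (edgeR adjusted p = 0.529). Oas2 had 21 counts against 1, a ratio of 22.3 (3.58 to 921), with an edgeR adjusted p of 0.597. edgeR called 0 of the 33 tested members and 0% of all genes, and at an unadjusted p under 0.05 it gave 2 members against 8.55% of all genes. Without the broad libraries that unadjusted threshold gave 6 of 33 members against 1119 of 12397 genes, with 0 members called. DESeq2 called 0 members and 0.189% of all genes, and voom 0 members and 0% of genes. The median log2 fold change was 0.19 over members and 0.33 over all genes tested.

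In hC4A/- against WT, Mx1 measured 0.6902, 0.537, 0.687, 0 and 0 CPM in hC4A/-, below the lowest WT library at 2.30 CPM. The groups did not overlap. Means were 0.383 ± 0.355 CPM (SD, n = 5) and 15.7 ± 15.2 CPM (n = 4), and 3 counts against 164 gave a level 63.02-fold lower (95% exact interval 21.2 to 309, counting error only). The log2 fold change was -5.22 ± 1.39 (SE), with an unadjusted p of 7.05e-04 and an edgeR adjusted p of 0.358. DESeq2 called it at an adjusted p of 0.0494 among 39 genes (0.308%), the only member DESeq2 called in any comparison, and the adjusted p ran from 0.0494 to 0.855 over the other settings. Herc6, which encodes the main mouse ligase of ISG15, measured 1.38, 0.537, 24.03, 1.17 and 1.36 CPM in hC4A/- and 4.34, 24.9, 33.7 and 29.7 CPM in WT. The groups overlapped through hC4A/- replicate 3 and WT replicate 1, and the log2 fold change was -2.03 ± 0.98 (SE), or -4.29 without hC4A/- replicate 3 (edgeR adjusted p = 0.656). A neighbouring gene model covers 13.7% of the Herc6 exon bases. Ifi204 gave 2.22 ± 1.30 (SE), which turned to -0.84 without hC4A/- replicate 5 and to -0.88 by voom. edgeR called 0 members and 0% of all genes, 2 members had an unadjusted p under 0.05 against 7.51% of all genes, and voom called 0 members and 0.00789% of genes. Members had a median log2 fold change of -0.03 and all genes of -0.05.

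In hC4B/- against WT, the abundant Eif2ak2 and Irf1 were lower in the broad libraries of hC4B/-. Eif2ak2 measured 199, 13.3, 29.3 and 259 CPM in hC4B/- and 397, 449.9, 769 and 226 CPM in WT. hC4B/- replicates 2 and 3, both broad, were lowest, while replicate 4 overlapped with WT and replicate 1 lay just below the lowest WT library. The log2 fold change was -1.88 ± 0.91 (SE) (unadjusted p = 0.0482, edgeR adjusted p = 0.38) and -0.78 without the broad libraries. Irf1 gave -1.67 ± 0.91 (SE) (edgeR adjusted p = 0.408) and -0.74 without them. Oas2 measured 0.427, 3.62, 9.53 and 0.731 CPM in hC4B/- and 0, 0, 0.767 and 0 CPM in WT. Its 19 counts against 1 gave a ratio of 25.8 (95% exact interval 4.11 to 1073), most of it in the broad libraries, and its log2 fold change went from 4.00 ± 1.91 (SE) to 1.80 without them (edgeR adjusted p = 0.38). Xaf1, named after its values were seen, measured 7.49 to 9.65 CPM in hC4B/- and 0.712 to 3.25 CPM in WT, without overlap. Its unadjusted p by edgeR was not under 0.05, and C4-/- libraries ran from 1.61 to 20.6 CPM. edgeR called 0 members and 0% of all genes, 2 members had an unadjusted p under 0.05 against 13.1% of all genes. By DESeq2 0 members and 0.434% of genes were called, and by voom 0 members and 0% of genes. Members had a median log2 fold change of 0.10 and all genes of 0.18.

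In hC4A/A against WT, a comparison with only 2 hC4A/A libraries of which 1 was broad, Oasl2 and Mx2 had the smallest p. Oasl2 measured 22.9 and 5.18 CPM, above all WT libraries, and 75 counts against 3 gave a ratio of 52.7 (95% exact interval 17.4 to 261). Its log2 fold change was 4.70 ± 1.81 (SE) (edgeR adjusted p = 0.558), 3.37 without hC4A/A replicate 1 and 5.84 without WT replicate 3. Mx2, the second mouse Mx GTPase, measured 10.96 and 7.77 CPM in hC4A/A and 0, 0, 1.53 and 0.813 CPM in WT. The groups did not overlap, and the log2 fold change was 3.91 ± 1.76 (SE) (unadjusted p = 0.0337, edgeR adjusted p = 0.589). Ifit3 had 1 count in hC4A/A and 32 in WT, a level 15.2-fold lower (2.54 to 618), with an edgeR adjusted p of 0.61. WT replicate 2 held 20 of the 32 and had the highest neutrophil marker sum, 1424 CPM, whose part was not tested. The log2 fold change of -4.12 ± 2.25 (SE) became -2.70 without that library and -6.26 without hC4A/A replicate 1. edgeR called 0 members and 0% of all genes, 2 members had an unadjusted p under 0.05 against 8.41% of all genes. DESeq2 called 0 members and 0.0315% of genes, and voom 0 members and 0% of genes. Over members the median log2 fold change was -0.39, and over all genes 0.18. These 4 comparisons share the WT libraries.

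**Figure D4:**
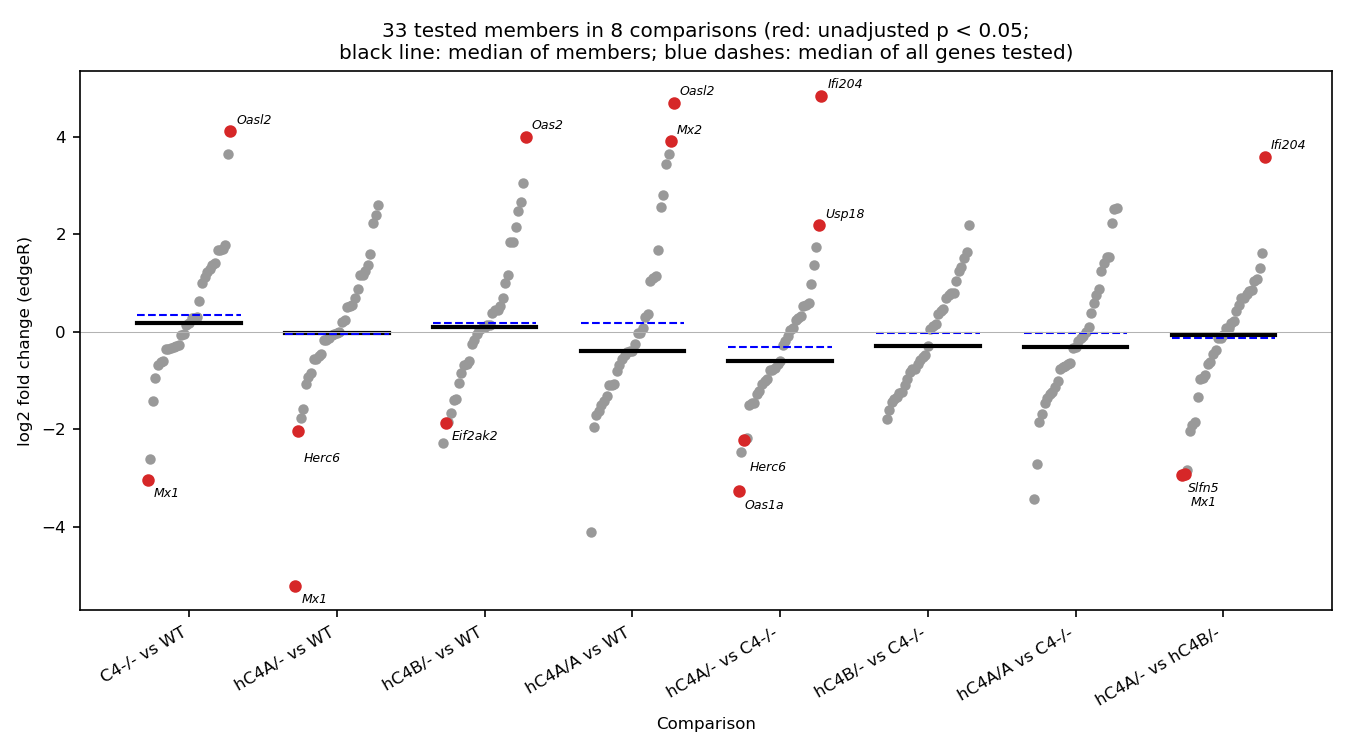
edgeR log2 fold change (vertical axis) of the 33 tested members in each of 8 comparisons (points in order of size), in red where the unadjusted p was under 0.05, with the median of members as a black line and of all genes tested as blue dashes. The red points number 0 to 4 per comparison, and the medians of members lie between -0.59 and 0.19.

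In hC4A/- against libraries labelled C4-/-, Ifi204 gave a log2 fold change of 4.84 ± 1.38 (SE), with an unadjusted p of 0.0014 and an edgeR adjusted p of 0.416, with 1.96 without hC4A/- replicate 5 and 1.98 by voom. With no filter on low counts edgeR called it (adjusted p = 0.0270) among 53 genes (0.118%). Herc6 measured 19.6, 31.7, 5.24, 45.1 and 29.9 CPM in C4-/-, against 4 hC4A/- libraries under 1.5 CPM and 24.0 CPM in replicate 3. Its log2 fold change was -2.22 ± 0.95 (SE) (edgeR adjusted p = 0.44), and -4.44 without hC4A/- replicate 3. Oas1a measured 0, 0.537, 0, 0 and 2.38 CPM in hC4A/- and 1.73, 0.932, 0, 0 and 31.9 CPM in C4-/-. The difference lay in C4-/- replicate 5, without which the log2 fold change of -3.28 ± 1.59 (SE) became -0.05. Usp18, the protease that removes ISG15 and damps the receptor, completes the members with an unadjusted p under 0.05 and was named after its value was seen. It measured 18.6, 16.7, 22.7, 37.5 and 15.3 CPM in hC4A/- and 4.601, 14.9, 1.97, 1.07 and 1.996 CPM in C4-/-. The lowest hC4A/- library lay just above the highest C4-/- library, so the groups did not overlap, and the log2 fold change was 2.19 ± 1.06 (SE) (edgeR adjusted p = 0.465). WT libraries held 26.03, 9.97, 0.767 and 0 CPM, which spans both groups. edgeR called 0 members and 0% of all genes, 4 members had an unadjusted p under 0.05 against 10.7% of all genes. DESeq2 called 0 members and 0.118% of genes, and voom 0 members and 0.00789% of genes. The median log2 fold change was -0.59 over members and -0.32 over all genes, and -0.04 over the members that had at least 10 counts in at least 4 libraries.

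In hC4B/- and in hC4A/A against C4-/-, 0 members had an unadjusted p under 0.05, against 4.52% and 2.17% of all genes. edgeR called 0 members and 0% of all genes in both. DESeq2 called 0 members in both, with 0.0237% of genes for hC4B/- and 0.00789% for hC4A/A, and voom called 0 members and 0% of genes. Slfn5, a Schlafen family protein, measured 2.14, 7.24, 8.17 and 2.92 CPM in hC4B/-, 3.87 and 9.07 CPM in hC4A/A and 1.73, 0.932, 1.31, 0 and 1.33 CPM in C4-/-. Neither group overlapped with C4-/-, and the highest values were in broad libraries. The log2 fold changes were 2.19 ± 1.32 (SE) and 2.52 ± 1.52 (SE) (edgeR adjusted p = 0.99 and 1). Slfn2, another Schlafen gene, measured 7.09 and 0 CPM in hC4A/A and 61.5, 41.96, 0.655, 11.3 and 16.6 CPM in C4-/- (log2 fold change -2.71 ± 1.56 (SE)). The groups overlapped, and the value was -8.29 without hC4A/A replicate 1 and -1.86 without replicate 2. The median log2 fold changes over members were -0.28 and -0.32, against -0.03 and -0.02 over all genes. These comparisons share the C4-/- libraries.

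Between hC4A/- and hC4B/-, Mx1 and Slfn5 had an unadjusted p under 0.05 and groups that did not overlap in CPM, at low counts. Mx1 measured 2.14, 1.21, 3.403 and 5.85 CPM in hC4B/-, above all hC4A/- libraries, with a log2 fold change of -2.93 ± 1.33 (SE) (edgeR adjusted p = 0.27). Slfn5 measured 1.38, 0, 0, 0.585 and 1.02 CPM in hC4A/-, all below the lowest hC4B/- library, with -2.93 ± 1.35 (SE) (edgeR adjusted p = 0.277). Summed counts in hC4A/- and hC4B/- were 3 and 19 for Mx1 and 6 and 27 for Slfn5, so both gaps rest on few reads. Xaf1, named after its values were seen, did not overlap either, at up to 7.02 CPM in hC4A/- and from 7.49 CPM in hC4B/-. The same held for the scarce, untested Isg20 and Ifit3b, also named after their values were seen. Ifi204 gave 3.59 ± 1.41 (SE), 0.52 without hC4A/- replicate 5 and 0.33 by voom. edgeR called 0 members and 0% of all genes, 3 members had an unadjusted p under 0.05 against 16.7% of all genes. By DESeq2 0 members and 0.733% of genes were called, and by voom 0 members and 0% of genes. Over members the median log2 fold change was -0.06, and over all genes -0.14.

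Asked for any difference among the 5 genotypes, edgeR called 15 genes (0.118%) and 0 members, and 2 members, Ifi204 and Mx1, had an unadjusted p under 0.05, against 12% of all genes. DESeq2 called 0 members and 0.560% of genes, and voom 0 members and 0% of genes. With no filter on low counts, Ifi204, Mx1 and Ifit2 were among 697 genes called (1.55%).

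The rest of the pathway was read from 105 further genes, of which 67 were tested. The interferon ligands, 19 genes, were all untested, with 32 counts over all genes and libraries, 23 of them in broad libraries, and 8 genes at 0 everywhere, where a count of 0 allows up to 3. edgeR called 0 of 11 tested upstream sensing genes, 0 of 8 receptor signalling genes and 0 of 48 other interferon response genes in each comparison. Shisa5 and Trim5 had the smallest p of those 67 in hC4B/- against C4-/-, and other settings were run for both. Shisa5 measured 58.5, 19.3, 1197 and 1.46 CPM in hC4B/- and 10.4, 6.53, 18.4, 6.98 and 14.6 CPM in C4-/-. Trim5 measured 27.8, 8.44, 542 and 113 CPM in hC4B/- and 10.4, 21.4, 6.55, 10.2 and 20.6 CPM in C4-/-. The broad hC4B/- replicate 3 stood far above every other library, where Shisa5 reached at most 114 CPM and Trim5 at most 113 CPM. Without it the log2 fold change of Shisa5 went from 4.80 ± 1.13 (SE) to 1.33 (edgeR adjusted p = 0.443 with all libraries), and that of Trim5 from 3.64 ± 0.92 (SE) to 2.21 (edgeR adjusted p = 0.447). DESeq2 called Trim5 (adjusted p = 0.00685), and edgeR with no filter called Shisa5 (adjusted p = 0.0310). The members highest in that library were Oas2, Oasl1, Isg20, Samd9l, Ifi44 and Isg15, at no more than 9.53 CPM.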

How the data were processed

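For each library the authors deposited unnormalized gene counts. STAR, edgeR and the build GRCm38 are named per the submitters' processing notes, with versions not given in the sources used here. Unstranded counts were used, since reads fell evenly on both strands (49.7% to 49.9% on 1 strand). Rows that name no gene were left out, namely reads with several alignments (13.2% to 28.9% of a library), unmapped (14.8% to 42.1%), outside genes (21.8% to 42.1%) and ambiguous (0.897% to 5.86%). Symbols came from GENCODE M21. Genes were filtered with filterByExpr by genotype (12680 kept), scaled by TMM and fitted in 1 edgeR quasi-likelihood model (edgeR 4.0.16, R 4.3.3, robust) with 1 coefficient per genotype, 20 libraries and 15 residual degrees of freedom, with Benjamini-Hochberg adjustment over all genes. CPM are TMM-scaled, and levels between genes are per kb of exon. DESeq2 1.42.0, voom (limma 3.58.1), RLE scaling, other filters, a replicate block, and fits without satellite-like genes, broad libraries or each library were alternatives. The procedure was run on simulated data for hC4B/- against WT, with changes placed only in abundant genes, so that run does not speak for the scarce members. Exact intervals treat reads summed over the mice of a genotype as independent, so they cover counting error only and leave out the spread between mice. Libraries of 1 genotype differed well beyond counting error, with a chi-square per degree of freedom of at least 26.3. Reads carry no molecular identifiers, so copied reads may make even the counting error too small. Of the further pathway genes, 1 was left out and is not reported here. The members and lists were chosen with earlier results of these data known. Members named with fold changes were taken from the 3 of smallest p per comparison. Those given by library were also taken from the 6 most abundant and the 6 tested members most held by 1 library. Not all of these values are printed, and members named after their values were seen are marked where they appear.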

Additional observations from a re-analysis of the deposited data

Results flagged for a closer look

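In groups of 4 or 5 libraries, 19 members named by library were examined for a library that stood apart by Dixon's criterion, in 76 groups. It marked 19. Chance marks about 1 in 20 groups, but 6 of the 19 members were chosen because 1 library held much of their level, CPM of scarce genes are skewed and the members share libraries, so the number of marks is not read against chance. hC4A/- replicate 5 stood apart in 4 members: Ifi204 (146 CPM, next 11.7), Oasl2 (13.6 CPM, next 2.15), Zbp1 (8.51 CPM, next 1.38) and Oas1a (2.38 CPM, next 0.537). In the other hC4A/- libraries, Herc6 stood apart in replicate 3 (24.0 CPM, next 1.38) and Ifit3 in replicate 4 (6.44 CPM, next 0.687).

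Among C4-/- libraries, replicate 5 was high in Stat2 (119.8 CPM, next 21.9) and Oas1a (31.9 CPM, next 1.73). Oasl2 was high in replicate 1 (34.5 CPM, next 5.32), Irf1 in replicate 2 (279.7 CPM, next 45.4) and Ifit3 in replicate 4 (7.52 CPM, next 2.66). The broad replicate 3 was high in Mx2 (4.59 CPM, next 1.15) and low in Trim30a (33.4 CPM, next 613).

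In WT, replicate 3 stood apart in Ifnar1 (91.2 CPM, next 14.2), Zbp1 (1.53 CPM, others 0) and Oas2 (0.767 CPM, others 0), the last being 1 count. Replicate 2 was high in Oas1a (7.12 CPM, next 0.767) and replicate 1 in Stat2 (30.4 CPM, next 17.8). In hC4B/-, the broad replicate 2 was high in Zbp1 (12.1 CPM, next 0.854).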

How the results depend on the processing

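The number of members called was 0 in 249 of 252 fits by comparison. The exceptions were 1 by DESeq2 in hC4A/- against WT, and with no filter on low counts 1 in hC4A/- against C4-/- and 3 for any difference. The number of members at an unadjusted p under 0.05 was less stable. Without the broad libraries it ran from 6 of 33 in C4-/- against WT (1119 of 12397 genes) to 0 of 33 in hC4B/- against WT (874 genes). Without satellite-like genes C4-/- against WT gave 6 of 35, against 1524 of 15305 genes. Ifi204 in hC4A/- against WT turned from 2.22 to -0.88 by voom, -1.48 with the replicate block and -0.84 without hC4A/- replicate 5, and against hC4B/- to -0.021 with the replicate block. Leaving out 1 library, Ifi204 against WT ran from -0.84 to 2.54. Without 1 library, 20 of 26 log2 fold changes of named genes moved by over 1.5 times in fold. For all of these the cause was not tested, apart from the libraries left out. Of 709 log2 fold changes of named genes, 701 kept their direction and their side of the threshold, and 4 passed it: Mx1 and Trim5 by DESeq2 (-5.39 and 4.07), Ifi204 and Shisa5 with no filter (5.12 and 4.44). Settings for Shisa5, Trim5 and the median over members were added after the data were seen, and that median moved most in hC4B/- against C4-/-, to 0.48 with the replicate block.

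Counts over all genes depended on the tool. In the order of the 8 comparisons given in the report, DESeq2 called 24, 39, 55, 4, 15, 3, 1 and 93, and 71 for any difference. With no filter edgeR called 26, 65, 28, 3, 53, 16, 0 and 36, and 697. Voom called 1 in hC4A/- against WT and against C4-/- and 0 for any difference, and without the broad libraries edgeR called 1 in hC4A/- against WT and 2 for any difference. Any difference gave 24 with RLE scaling, 25 without satellite-like genes, 0 with at least 10 counts in at least 4 libraries and 0 with the replicate block. Leaving out 1 library gave 0 to 2 in hC4B/- against WT (1 in its lowest changed fit), 0 to 1 in hC4A/A against WT, 0 to 8 in hC4A/- against hC4B/- (5 and 8 in its changed fits) and 0 to 34 for any difference.

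Replicate numbers did not pair most libraries: of 33 same-number pairs 5 correlated above 0.1, and 6 of 20 libraries matched their own number best. Correlations of same-number pairs ran from -0.30 to 0.70 with a median of 0.0083, so at least 1 such pair was alike. With the replicate block 0 members were called in every comparison. Depth limits the scarce members most, since 26 of 44 had a median under 10 counts, and with a common dispersion of 1.07 a p above the threshold does not show that genotypes are alike. Mean CPM of named members moved beyond 1 SD in 30 of 285 values, most of them without satellite-like genes.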
